A study of Rattus norvegicus with 15 samples.

Results

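Diosmetin plus doxorubicin was set against doxorubicin alone in H9c2 cells, over 6 of the 15 RNA sequencing libraries of the study. H9c2 cells are rat myoblasts, a line started from embryonic heart tissue. The DMT+DOX group (3 libraries) received 10 µM diosmetin 4 h before 2 µM doxorubicin, and the DOX group (3 libraries) received 2 µM doxorubicin without an addition. Cells of all groups were collected 24 h after the doxorubicin was added. Beside them stand 3 libraries each of 2 other pretreatments before the same dose of doxorubicin, 5 µM astaxanthin (AXT+DOX) and 50 µL of danshen injection diluted 1 in 20 (DSI+DOX), and 3 libraries of cells given phosphate-buffered saline (con). No library of cells given diosmetin without doxorubicin was analysed here, so an effect of diosmetin on the cells and an effect on their response to doxorubicin cannot be told apart. The labels carry the genotype tag WT and leave unsaid whether the 3 samples per group came from separate cultures, so the spread that p-values are measured against may be technical.

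Doxorubicin, an anthracycline, slips between DNA bases and locks topoisomerase II onto the strand, and its use against cancer is limited by damage to heart muscle. Diosmetin is a plant flavone, and flavones as a class include ligands of the aryl hydrocarbon receptor (AhR), which moves to the nucleus, joins its partner Arnt and switches on genes of drug metabolism at sites with the core GCGTG. NF-kB is a family of transcription factors held in the cytoplasm by IkB proteins until stress or cytokines release it, after which it drives chemokines, adhesion molecules and its own inhibitors. Both pathways have known binding sequences near the start sites of classical target genes, and 5 of these promoters are printed here because their genes carry the contrasts described afterwards.

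Each sequence is the RefSeq promoter in build GRCr8 (250 bases before the annotated start and 50 after it), written 5′ to 3′ on the gene's own strand, with matches in capitals. In Ahrr (chr1:30821969-30822268, plus strand) and Cyp1b1 (chr6:21094315-21094614, plus strand) the capitals mark the AhR core GCGTG on either strand, so that CACGC is a match on the opposite strand. In Cxcl1 (chr14:17479272-17479571, minus strand), Tnfaip3 (chr1:15543930-15544229, minus strand) and Il6 (chr4:5894526-5894825, minus strand) they mark the standard kappa B consensus on either strand.
Ahrr: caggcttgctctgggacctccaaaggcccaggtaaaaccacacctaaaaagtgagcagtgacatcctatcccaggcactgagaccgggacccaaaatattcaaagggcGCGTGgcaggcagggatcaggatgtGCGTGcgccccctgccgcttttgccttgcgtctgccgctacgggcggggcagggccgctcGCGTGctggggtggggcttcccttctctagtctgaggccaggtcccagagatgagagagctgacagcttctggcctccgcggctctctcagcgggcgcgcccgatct
Cyp1b1: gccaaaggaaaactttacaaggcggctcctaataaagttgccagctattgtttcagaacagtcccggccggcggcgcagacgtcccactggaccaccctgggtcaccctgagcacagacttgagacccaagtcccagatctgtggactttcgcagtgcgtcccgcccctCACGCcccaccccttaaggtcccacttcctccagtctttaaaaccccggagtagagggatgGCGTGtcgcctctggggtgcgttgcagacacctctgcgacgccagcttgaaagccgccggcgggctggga
Cxcl1: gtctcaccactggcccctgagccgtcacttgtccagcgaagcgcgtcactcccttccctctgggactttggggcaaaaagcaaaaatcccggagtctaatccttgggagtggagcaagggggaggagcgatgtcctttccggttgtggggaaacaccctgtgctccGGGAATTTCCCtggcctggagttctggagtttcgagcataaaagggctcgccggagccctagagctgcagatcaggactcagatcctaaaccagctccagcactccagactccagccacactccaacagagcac
Tnfaip3: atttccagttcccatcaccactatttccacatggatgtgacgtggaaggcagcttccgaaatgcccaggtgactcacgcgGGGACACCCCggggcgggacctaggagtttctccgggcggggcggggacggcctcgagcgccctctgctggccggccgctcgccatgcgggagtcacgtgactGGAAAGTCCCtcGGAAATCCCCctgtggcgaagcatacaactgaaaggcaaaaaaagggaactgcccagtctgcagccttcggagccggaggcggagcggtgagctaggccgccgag
Il6: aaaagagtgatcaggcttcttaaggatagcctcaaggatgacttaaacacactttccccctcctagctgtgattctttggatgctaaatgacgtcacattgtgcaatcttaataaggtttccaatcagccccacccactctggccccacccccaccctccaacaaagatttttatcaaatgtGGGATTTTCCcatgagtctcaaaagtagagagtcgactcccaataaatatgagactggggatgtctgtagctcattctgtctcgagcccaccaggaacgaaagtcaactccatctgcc
The Ahrr promoter held 3 separate matches, the first beginning 142 bases before the start, and the Cyp1b1 promoter held 2. The Tnfaip3 promoter held 3 kappa B matches and the Il6 promoter 1. The Cxcl1 match is read on both strands in overlapping frames. GCGTG stood in 31.8% of 24206 promoters of this length and in 52.4% of the 7608 that belong to tested genes, and in 6 of the 8 promoters found for tested genes of an AhR list. The kappa B consensus stood in 4.09% of the 24206 promoters, in 4.81% of those of tested genes, and in 11 of the 18 promoters found for tested genes of an NF-kB list. These matches are letters in a window and say nothing of binding.

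The deposited values are FPKM, read counts scaled for transcript length and library size, with the read depth unknown. The 6 libraries summed to between 441658 and 466512 FPKM. Across genes, which do not count as replicates, Pearson's r of log2(FPKM + 1) lay between 0.9914 and 0.9959 within the groups and between 0.9845 and 0.9879 across them. The cells are labelled as cardiomyocytes, but 8 of 10 cardiomyocyte markers, among them Myh6, Myh7, Tnni3, Actn2 and Ryr2, stayed under 1 FPKM in all 6 libraries. Of 7 matched skeletal myoblast markers, 6 averaged 1 FPKM or more, and Pax7 was listed at 0. All 7 endothelial and 6 of 7 leukocyte markers stayed under 1 FPKM.

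A gene entered the limma test, on log2(FPKM + 1), when 3 or more of the 6 libraries reached 1 FPKM. Calls needed an adjusted p (Benjamini-Hochberg) below 0.05. Fold changes are given on that log2 scale as DMT+DOX over DOX with their standard error (SE), and they understate the change of low genes. Of 11061 tested genes, 2267 were called (20.5%), 717 higher with diosmetin (6.48%) and 1550 lower (14%). A change of at least 2-fold was seen in 59 of the called genes (0.533% of those tested), 21 higher and 38 lower. Most differences were small, with a median of -0.045 over all tested genes and a 5th to 95th percentile range of -0.398 to 0.319. The split between directions depended on scaling. Median scaling gave 1035 genes higher and 905 lower, and quantile normalization gave 1004 higher and 1143 lower. The count of calls was 1188 without DMT+DOX replicate 1, 1198 without DMT+DOX replicate 2 and 1269 without DOX replicate 2.

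**Figure D1:**
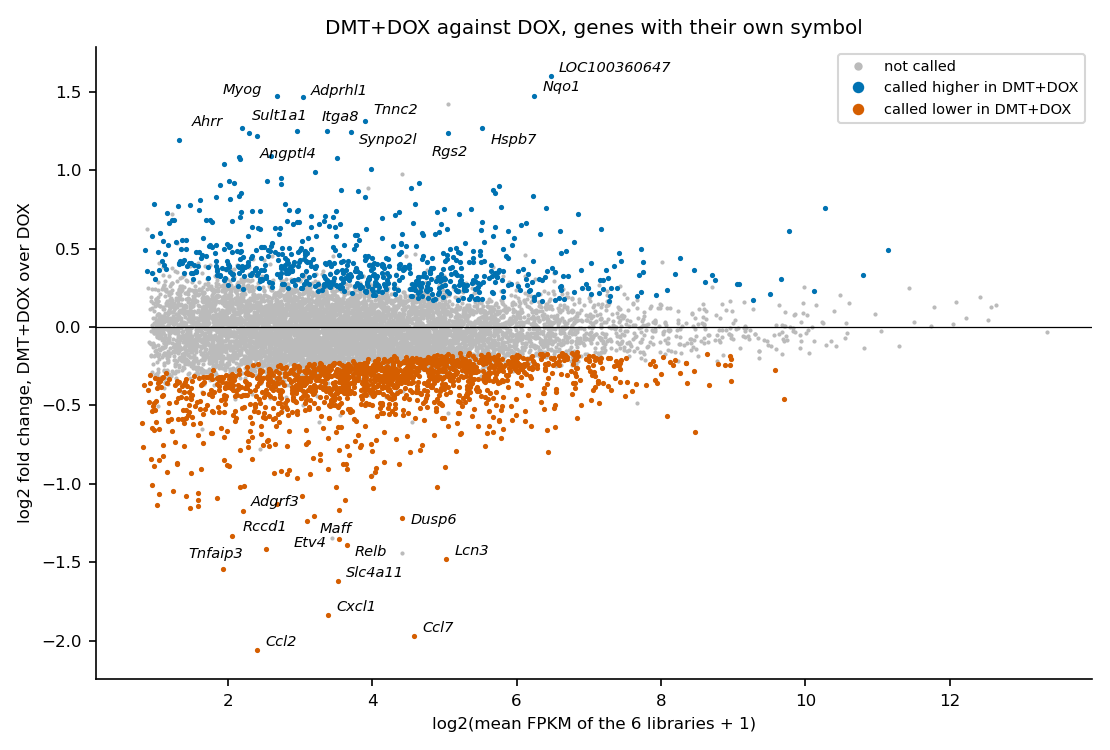
Each point is 1 of the 10397 tested genes with a symbol of its own, placed by its mean level over the 6 libraries (log2 of FPKM + 1) and its log2 fold change, DMT+DOX over DOX. Blue points were called higher in DMT+DOX, orange points lower and grey points not called, and the 12 named rises reach from Angptl4 at 1.24 to LOC100360647 at 1.60 while the falls reach Ccl2 at -2.06.

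Chemokines and regulators of NF-kB had the lowest median of the 45 gene lists. Of 23 tested genes on a list of NF-kB targets and regulators, 17 fell with diosmetin (against 14% of all tested genes) and none rose, with a median log2 fold change of -0.71. In 20 of the 23, all 3 DMT+DOX libraries lay under all 3 DOX libraries, which held for 25.8% of all tested genes. The median of the list, taken library by library against the DOX mean, was -0.745, -0.688 and -0.648 in the DMT+DOX libraries, so no single library carried it.

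Ccl2, a chemokine that recruits monocytes, stood at 1.22, 0.78 and 1.15 FPKM in the DMT+DOX libraries, against 8.39, 7.49 and 6.77 FPKM in the DOX libraries and 1.32, 1.66 and 1.83 FPKM in con. The groups did not overlap, and the highest DMT+DOX library lay under the lowest con library (log2 fold change -2.06 ± 0.11, limma adjusted p = 1.72e-05). Ccl7, a related monocyte chemokine, was at 7.79, 7.96 and 10.5 FPKM with diosmetin, against 41, 36.4 and 33.7 FPKM in DOX and 15.7, 17.8 and 14.7 FPKM in con. It too fell under con as well as under DOX (log2 fold change -1.97 ± 0.11, limma adjusted p = 2.12e-05, and for DMT+DOX against con log2 fold change -0.82 ± 0.11, limma adjusted p = 0.000374). Cxcl1, which attracts neutrophils, was at 3.33, 3.93 and 3.42 FPKM in DMT+DOX, against 15.7, 16.1 and 14 FPKM in DOX and 3.36, 3.63 and 2.67 FPKM in con. Its DMT+DOX and con libraries overlapped, while every DOX library was higher than both (log2 fold change -1.84 ± 0.08, limma adjusted p = 7.23e-06).

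Several inhibitors and subunits of the pathway fell as well. Tnfaip3, the ubiquitin-editing enzyme A20 that shuts NF-kB signalling down, was at 2.02, 2.3 and 2.06 FPKM in DMT+DOX libraries, against 7.13, 7.59 and 7.36 FPKM in DOX libraries (log2 fold change -1.42 ± 0.08, limma adjusted p = 1.73e-05). Relb, a subunit of the non-canonical arm, was at 5.97, 5.45 and 6.29 FPKM, against 17.7, 16.3 and 17.3 FPKM in DOX and 3.76, 3.71 and 4.31 FPKM in con (log2 fold change -1.39 ± 0.07, limma adjusted p = 1.56e-05). Relb with diosmetin thus lay between the other groups, without overlap with either. Irf1, a transcription factor of the interferon and NF-kB programmes, was at 6.76, 6.84 and 7.33 FPKM with diosmetin, against 11.9, 12.6 and 11.6 FPKM in DOX (log2 fold change -0.71 ± 0.07, limma adjusted p = 0.00027). Il6, the cytokine interleukin 6, was at 9.2, 10.1 and 9.26 FPKM in DMT+DOX, against 20.6, 17 and 13.7 FPKM in DOX and 3.21, 2.23 and 2.48 FPKM in con (log2 fold change -0.77 ± 0.12, limma adjusted p = 0.00349). The DOX libraries of Il6 spread more widely than the diosmetin ones, and both groups lay well above con. The 6 list members that were not called were Rel, Birc3, Ptgs2, Nfkb1, Sod2 and Traf1, with log2 fold changes between -0.29 and -0.16.

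The same list in cells given doxorubicin alone, against con, had 18 of 23 members higher and 2 lower (background 32.6% higher and 23.9% lower of 11092 tested genes). In DMT+DOX against con it had 7 higher and 4 lower (background 24.8% higher and 23.3% lower of 11013). These comparisons share libraries with DMT+DOX against DOX and are given side by side only. Leukocyte markers summed to 1.97 to 2.34 FPKM in the DMT+DOX libraries and 1.58 to 2.5 FPKM in the DOX libraries, with Adgre1 and Cd79a at 0 and Ptprc, Csf1r, Cd68 and Lyz2 under 1 FPKM in all 6.

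**Figure D2:**
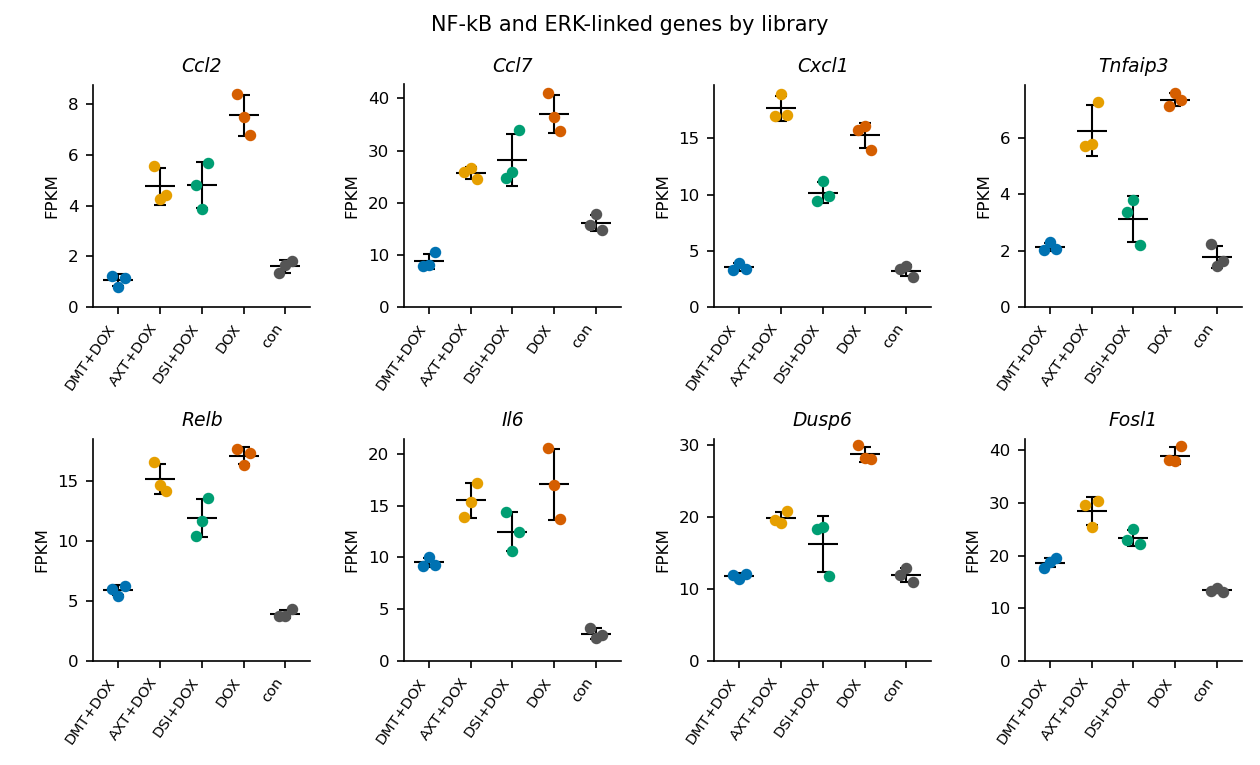
FPKM of 8 NF-kB and ERK-linked genes in each library of the 5 groups, with the mean and SD of the 3 libraries as bars. In each panel the 3 DMT+DOX libraries lie under the 3 DOX libraries, and for Ccl2 and Ccl7 they also lie under the con libraries.

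Interferon genes gave a smaller count. On a list of 24 tested interferon-response genes, 6 fell and none rose (beside 14% lower and 6.48% higher over all tested genes), with a median of -0.11. Apart from Irf1 they included Tap1, the peptide transporter of antigen presentation, at 16.7, 15.8 and 15.7 FPKM in DMT+DOX, against 24.8, 27.1 and 28.2 FPKM in DOX (log2 fold change -0.70 ± 0.07, limma adjusted p = 0.000217). Irf7, a master regulator of type I interferon, was at 13.9, 15.4 and 16.2 FPKM, against 22.9, 21.8 and 23.5 FPKM in DOX (log2 fold change -0.56 ± 0.07, limma adjusted p = 0.000985). Both stayed above con, where Tap1 averaged 6.58 ± 0.213 FPKM and Irf7 5.81 ± 0.567 FPKM.

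Genes that report on the ERK branch of MAP kinase signalling fell as well. ERK induces ETS factors, phosphatases and Sprouty proteins that in turn restrain it. Of 18 tested genes on a list of such feedback genes, 9 fell and 1 rose (beside 14% lower and 6.48% higher over all tested genes), with a median of -0.32. Dusp6, the phosphatase that acts on ERK itself, was at 12, 11.4 and 12 FPKM in DMT+DOX libraries, against 30.0, 28.2 and 28.1 FPKM in DOX libraries and 11.9, 13 and 11 FPKM in con libraries (log2 fold change -1.22 ± 0.06, limma adjusted p = 9.12e-06). Its diosmetin libraries lay within the range of con. Etv4, an ETS factor downstream of ERK, was at 5.24, 5.79 and 5.68 FPKM, against 15, 16.7 and 15.6 FPKM in DOX (log2 fold change -1.35 ± 0.07, limma adjusted p = 1.7e-05). Etv5, its close relative, was at 3.13, 2.77 and 3.21 FPKM, against 7.26, 7.65 and 8.59 FPKM in DOX (log2 fold change -1.13 ± 0.09, limma adjusted p = 8.94e-05). The 1 member that rose was Dusp1, a stress-induced phosphatase of nuclear MAP kinases, at 55, 52.8 and 53 FPKM, against 47.1, 43.5 and 46.8 FPKM in DOX (log2 fold change 0.22 ± 0.05, limma adjusted p = 0.0194).

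Immediate early genes, which are transcribed within minutes of a stimulus without new protein, showed 12 falls and 1 rise among 21 tested (beside 14% lower and 6.48% higher over all tested genes), with a median of -0.28. Fosl1, an AP-1 subunit, was at 17.7, 18.8 and 19.5 FPKM in DMT+DOX, against 38.2, 38 and 40.9 FPKM in DOX and 13.3, 14 and 13 FPKM in con (log2 fold change -1.02 ± 0.06, limma adjusted p = 2.46e-05). Maff, a small Maf factor, was at 4.82, 4.69 and 4.02 FPKM, against 11.6, 12.2 and 11.3 FPKM in DOX (log2 fold change -1.21 ± 0.08, limma adjusted p = 4.96e-05). Egr1, a zinc-finger factor of growth signalling, was at 9.57, 9.24 and 8.88 FPKM, against 15.4, 16.1 and 16.4 FPKM in DOX and 14.8, 16.2 and 14.5 FPKM in con (log2 fold change -0.73 ± 0.06, limma adjusted p = 0.000144). Egr1 differs from Fosl1 in that its DOX and con libraries overlapped, and the diosmetin libraries alone were low. The member that rose was Zfp36, which speeds the decay of cytokine messages, at 28, 25.4 and 24.3 FPKM, against 20.7, 21.5 and 20.7 FPKM in DOX (log2 fold change 0.29 ± 0.07, limma adjusted p = 0.0144). Fos itself had a log2 fold change of -0.08 ± 0.10 and was not called (limma adjusted p = 0.591).

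The integrated stress response, in which Atf4 raises amino acid supply and the Ddit3 programme after eIF2 alpha is phosphorylated, was lower with diosmetin across most of its targets. Of 32 tested genes on its list 23 fell and 1 rose (beside 14% lower and 6.48% higher over all tested genes), with a median of -0.33. In 27 of the 32 all 3 DMT+DOX libraries lay under all 3 DOX libraries, which held for 25.8% of all tested genes. Slc7a5, the light chain of a large amino acid transporter, was at 63.1, 62.5 and 60.8 FPKM in DMT+DOX, against 102, 109 and 116 FPKM in DOX and 44.8, 44 and 45.5 FPKM in con (log2 fold change -0.80 ± 0.06, limma adjusted p = 6.65e-05). Trib3, a pseudokinase induced by Atf4, was at 37.7, 37.8 and 39.6 FPKM, against 60.6, 60.5 and 64.3 FPKM in DOX and 5.37, 6.45 and 5.37 FPKM in con (log2 fold change -0.67 ± 0.05, limma adjusted p = 8.94e-05). Ddit3, the factor CHOP that promotes death under lasting stress, was at 67.8, 67.3 and 78.6 FPKM, against 124, 112 and 99.4 FPKM in DOX and 15.3, 13 and 14.7 FPKM in con (log2 fold change -0.64 ± 0.09, limma adjusted p = 0.00169). All 3 stayed well above con in every diosmetin library. Chac1, which degrades glutathione, was at 28.9, 29 and 27.4 FPKM, against 42.7, 41.3 and 42.4 FPKM in DOX (log2 fold change -0.55 ± 0.05, limma adjusted p = 0.000219). Vldlr, a lipoprotein receptor, was the member that rose (log2 fold change 0.26 ± 0.05, limma adjusted p = 0.00731). Across the list, DMT+DOX against con had 24 of 30 members higher and 2 lower (background 24.8% higher and 23.3% lower), and DOX against con had 29 of 32 higher and none lower (background 32.6% and 23.9%).

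Aminoacyl-tRNA synthetases, the enzymes that load amino acids onto tRNA and many of which Atf4 induces, had 15 of 20 tested members lower and none higher (beside 14% lower and 6.48% higher over all tested genes), with a median of -0.26. The library medians were -0.261, -0.268 and -0.261 in the DMT+DOX libraries. Cars, the cysteinyl enzyme, was at 53, 54.5 and 55.5 FPKM, against 81.1, 83.3 and 84.4 FPKM in DOX and 35.2, 36.4 and 35.8 FPKM in con (log2 fold change -0.60 ± 0.05, limma adjusted p = 0.000105). Sars1, the seryl enzyme, was at 134, 133 and 137 FPKM, against 179, 175 and 181 FPKM in DOX (log2 fold change -0.40 ± 0.05, limma adjusted p = 0.000698). The groups of both genes did not overlap. Under median scaling 11 of the 20 remained called, all lower.

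Calls in the endoplasmic reticulum branch of the unfolded protein response did not go in 1 direction, though more of its genes leaned higher. Of its 27 tested genes 4 rose and 3 fell (beside 14% lower and 6.48% higher over all tested genes), with a median of 0.08. The fitted change was above 0 in 20 of the 27. In 13 all DMT+DOX libraries lay above all DOX libraries and in 5 all below, beside 13.1% and 25.8% of all tested genes. Pdia4, a disulfide isomerase of the reticulum, was at 156, 165 and 159.5 FPKM, against 130.3, 129.7 and 129 FPKM in DOX (log2 fold change 0.30 ± 0.05, limma adjusted p = 0.00311). Pdia6, Hsp90b1 and Calr were the other members that rose, and Ern1, Herpud1 and Xbp1 fell. The Ern1 call was lost without any 1 library other than DOX replicate 1, with an adjusted p between 0.0944 and 0.118, and the Pdia6 call without DMT+DOX replicate 1, DMT+DOX replicate 2 or DOX replicate 2, between 0.0511 and 0.0619. With all 15 libraries in 1 fit, 2 genes of the list rose and 1 fell. Hspa5, the chaperone BiP, had a log2 fold change of -0.15 ± 0.06 and was not called (limma adjusted p = 0.0971). Under median scaling 6 of the 27 were called, all higher.

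Many genes for building ribosomes in the nucleolus fell. Of 34 tested nucleolar genes 21 fell and none rose (beside 14% lower and 6.48% higher over all tested genes), with a median of -0.31. Rrp9, which holds the U3 small nucleolar RNA particle, was at 13.7, 13.4 and 15.7 FPKM in DMT+DOX, against 20.9, 21.4 and 20.3 FPKM in DOX (log2 fold change -0.52 ± 0.07, limma adjusted p = 0.00159). Wdr74, a nucleolar protein of large-subunit assembly, was at 27.8, 30.0 and 33 FPKM, against 43.9, 39.1 and 40.5 FPKM in DOX (log2 fold change -0.43 ± 0.07, limma adjusted p = 0.00449). Nhp2, a protein of H/ACA small nucleolar RNA particles, was at 15.1, 16.3 and 20.2 FPKM, against 42.3, 20.6 and 31.3 FPKM in DOX (log2 fold change -0.78 ± 0.21, limma adjusted p = 0.0319), and its DOX libraries spread widely. The Nhp2 call was lost without DMT+DOX replicate 1 (-0.70, adjusted p = 0.0981), without DMT+DOX replicate 2 (-0.75, adjusted p = 0.0938) and without DOX replicate 3 (-0.76, adjusted p = 0.0801). With all 15 libraries in 1 fit, 11 of the 34 were called, all lower. The ribosomal proteins themselves gave 0 calls in limma among 33 tested, with 1 at an unadjusted p under 0.05 and a median of -0.05 (0.01 under median scaling). Quantile normalization called 6 of the 33, all lower. In all 33 the libraries of the groups overlapped. Over all tested genes, 13.1% had all DMT+DOX libraries higher without overlap and 25.8% all lower. The list medians of single libraries ran from -0.163 in DMT+DOX 1 to 0.081 in DMT+DOX 3.

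Targets of p53, the factor that DNA damage stabilizes, fell in part. On a list of targets for cell-cycle arrest and feedback, 11 of 25 tested genes fell and 1 rose (beside 14% lower and 6.48% higher over all tested genes), with a median of -0.23. Polh, the polymerase that copies past ultraviolet and other lesions, was at 6.15, 6.57 and 6.6 FPKM in DMT+DOX, against 13.6, 14.5 and 14.1 FPKM in DOX and 4.41, 4.76 and 5.39 FPKM in con (log2 fold change -1.02 ± 0.07, limma adjusted p = 4.37e-05). Mdm2, the ligase that degrades p53, was at 187, 191 and 196 FPKM, against 263, 253 and 228 FPKM in DOX and 66.9, 69.8 and 68.7 FPKM in con (log2 fold change -0.37 ± 0.06, limma adjusted p = 0.00407). Gtse1, which holds p53 out of the nucleus, was at 42.2, 42.8 and 41.1 FPKM, against 62.6, 63 and 66 FPKM in DOX (log2 fold change -0.59 ± 0.05, limma adjusted p = 0.000132). Cdkn1a, the arrest protein p21, did not follow them. It stood at 307, 304 and 322 FPKM with diosmetin, 298, 281 and 290.2 FPKM in DOX and 111, 113 and 108 FPKM in con, and was not called in DMT+DOX against DOX (log2 fold change 0.10 ± 0.05, limma adjusted p = 0.2). The member that rose was Ccng2, a cyclin-like protein of arrest (log2 fold change 0.27 ± 0.06, limma adjusted p = 0.0126).

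Among p53 targets that signal death, 7 of 12 tested genes fell and 1, the death receptor gene Fas, rose (beside 14% lower and 6.48% higher over all tested genes), with a median of -0.29. Pmaip1, the BH3-only protein NOXA, was at 63.1, 66.6 and 65.5 FPKM in DMT+DOX, against 114, 108 and 89.4 FPKM in DOX and 35.2, 34.7 and 36.5 FPKM in con (log2 fold change -0.66 ± 0.08, limma adjusted p = 0.00111). Aen, a nuclease of apoptosis, was at 64.7, 68 and 68.4 FPKM, against 93.9, 97.5 and 99.4 FPKM in DOX (log2 fold change -0.53 ± 0.05, limma adjusted p = 0.000248). Bax, the pore-forming effector of the BCL2 family, was at 99.2, 99.7 and 106 FPKM, against 127, 122 and 118 FPKM in DOX (log2 fold change -0.26 ± 0.05, limma adjusted p = 0.0105). That call on Bax was lost without DMT+DOX replicate 1 (-0.24, adjusted p = 0.0515), without DMT+DOX replicate 2 (-0.25, adjusted p = 0.0554) and under median scaling (-0.20, adjusted p = 0.0511). Bmf, a BH3-only protein released when a cell loses its anchorage, went the other way, at 14.7, 14.8 and 14.1 FPKM in DMT+DOX, against 6.27, 5.82 and 7.03 FPKM in DOX and 10.7, 10.4 and 11.6 FPKM in con (log2 fold change 1.08 ± 0.08, limma adjusted p = 6.49e-05). The Bcl2l11 call was lost without DMT+DOX replicate 1 (adjusted p = 0.0654), DMT+DOX replicate 2 (0.0526) or DOX replicate 2 (0.0618). Over the BCL2 family 2 of 13 rose (Bmf and Bcl2l11) and 2 fell, with a median of -0.05 that turned to 0.01 under median scaling. Casp4, an inflammatory caspase, was at 32.4, 31.3 and 33.6 FPKM in DMT+DOX, against 52.3, 49.9 and 43.5 FPKM in DOX and 11.9, 11.6 and 11.4 FPKM in con (log2 fold change -0.57 ± 0.07, limma adjusted p = 0.00115). Its list of caspases and inhibitors had few calls, with 1 of 20 tested genes higher and 2 lower and a median of -0.04 (beside 14% lower and 6.48% higher over all tested genes).

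Replication and mitosis genes, which doxorubicin lowered against con, moved apart. Of 36 tested replication genes 15 fell and 1 (Tk1) rose with diosmetin (beside 14% lower and 6.48% higher over all tested genes), with a median of -0.18. A fit of all 15 libraries called 9 of the 36, all lower, and median scaling gave 10 lower and 1 higher. Cdt1, which licenses origins, was at 3.04, 2.99 and 3.53 FPKM in DMT+DOX, against 6.61, 5.3 and 6.33 FPKM in DOX and 8.54, 8.02 and 8.22 FPKM in con (log2 fold change -0.76 ± 0.10, limma adjusted p = 0.00118). Mcm7, a subunit of the replicative helicase, was at 17, 15.7 and 16.2 FPKM, against 25.3, 25.5 and 22.6 FPKM in DOX and 41, 40.0 and 39.1 FPKM in con (log2 fold change -0.56 ± 0.07, limma adjusted p = 0.000825). Rfc4, of the clamp loader, was at 25.9, 27.4 and 28.9 FPKM, against 49.6, 43.7 and 40.7 FPKM in DOX (log2 fold change -0.68 ± 0.08, limma adjusted p = 0.000645). Of 44 tested mitosis genes, 10 rose and 2 (Cdc25c and Cdca8) fell (beside 14% lower and 6.48% higher over all tested genes), with a median of 0.11 and library medians of 0.031, 0.160 and 0.136 in the DMT+DOX libraries. With all 15 libraries in 1 fit, 4 of the 44 rose and 1 fell.

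Cenpf, a kinetochore protein, was at 3.25, 3.6 and 2.8 FPKM with diosmetin, against 1.35, 1.83 and 1.79 FPKM in DOX and 7.07, 6.18 and 7.81 FPKM in con (log2 fold change 0.67 ± 0.11, limma adjusted p = 0.00382). Ccnb1, the cyclin of mitotic entry, was at 12.3, 13.8 and 14.5 FPKM, against 9, 9.89 and 10.6 FPKM in DOX and 40.3, 38.9 and 38.6 FPKM in con (log2 fold change 0.42 ± 0.08, limma adjusted p = 0.00911). Both stayed far under con in every diosmetin library. Top2a, the enzyme doxorubicin traps, was at 13.9, 13.3 and 12.3 FPKM, against 10.8, 10.3 and 9.57 FPKM in DOX and 33.1, 31.1 and 35.6 FPKM in con (log2 fold change 0.33 ± 0.07, limma adjusted p = 0.0138). The Top2a call was lost without DMT+DOX replicate 1 (0.30, adjusted p = 0.0652), without DMT+DOX replicate 2 (0.33, adjusted p = 0.0559) and without DOX replicate 2 (0.34, adjusted p = 0.0512). These lists were read in the same cells, and their counts are not independent.

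**Figure D3:**
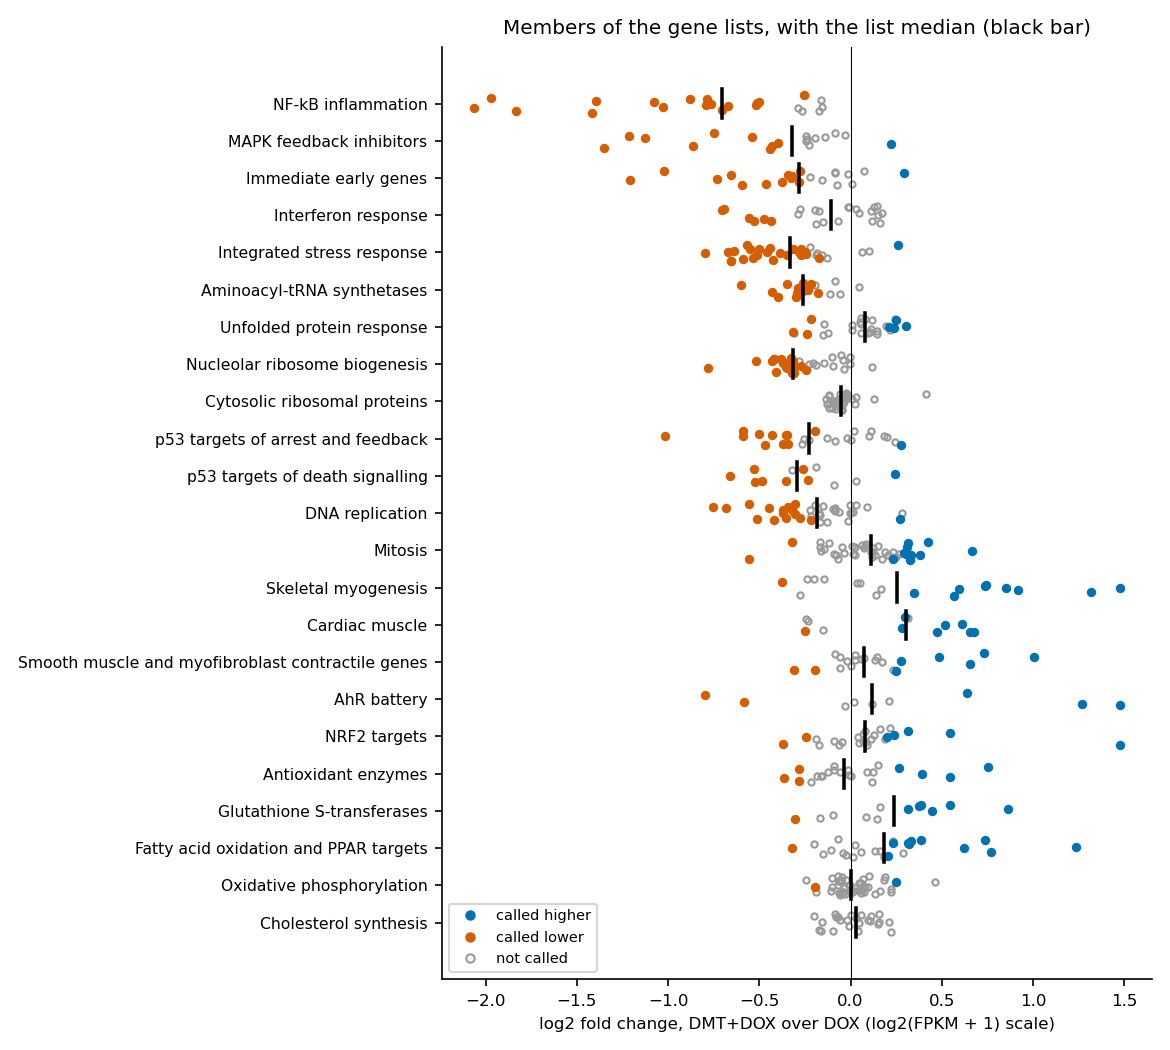
Log2 fold change, DMT+DOX over DOX, of the tested members of 23 gene lists, 1 row per list. Filled points were called (blue higher, orange lower), open points were not, and the black bar is the list median, which runs from -0.71 for NF-kB inflammation to 0.31 for cardiac muscle.

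Among the 45 gene lists, cell type markers aside, cardiac and skeletal muscle had the highest medians. In culture, H9c2 myoblasts keep part of the skeletal programme that Myod1 and Myog drive. Of 18 tested skeletal myogenesis genes 9 rose and 1 (Cacna1s) fell, against 6.48% and 14% of all tested genes, with a median of 0.26. Of the 28 matched cardiac muscle genes 12 were tested. Of these 7 rose and 1 (Gja1) fell, with a median of 0.31, and with all 15 libraries in 1 fit 4 rose and none fell. Of 21 smooth muscle and myofibroblast genes 6 rose and 2 fell, with a median of 0.07. In these bulk samples fewer cells of a type and less RNA per cell cannot be told apart. Skeletal myoblast markers summed to 98.3 to 100.4 FPKM in the DMT+DOX libraries, 68.1 to 73.1 FPKM in DOX and 177 to 185 FPKM in con, and 3 of the 6 tested were called higher. Fibroblast markers, of which Col1a1 and Col3a1 rose, summed to between 2304 and 2484 FPKM in DMT+DOX and between 1806 and 2109 FPKM in DOX, with Dcn at 0. Cardiomyocyte markers went the other way, with sums of 9.77 to 10.6 FPKM in DMT+DOX and 11.7 to 12.5 FPKM in DOX. The 2 of them that were tested had a median of -0.20 and were not called. The part of a shift between cell states in the muscle counts was not tested.

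Myog, the factor that commits myoblasts to differentiate, was at 7.31, 8.51 and 9.45 FPKM in DMT+DOX libraries, against 2.22, 2.6 and 2.31 FPKM in DOX libraries and 92.8, 98.4 and 90.5 FPKM in con libraries (log2 fold change 1.48 ± 0.10, limma adjusted p = 5.09e-05). Diosmetin libraries were thus above every DOX library and far under every con library. Tnnc2, fast skeletal troponin C, was at 18.5, 19.7 and 22.6 FPKM, against 7.43, 8.71 and 6.51 FPKM in DOX and 23, 25.9 and 22.8 FPKM in con (log2 fold change 1.32 ± 0.11, limma adjusted p = 0.000105). Acta1, skeletal alpha actin, was at 4.61, 4.65 and 4.36 FPKM, against 1.9, 2.25 and 1.67 FPKM in DOX and 18.5, 21.5 and 18.1 FPKM in con (log2 fold change 0.92 ± 0.09, limma adjusted p = 0.000341). Of these, Tnnc2 came close to con while Myog and Acta1 remained far from it.

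Hspb7, a small heat shock protein of heart and skeletal muscle, was at 63, 63.8 and 64.7 FPKM in DMT+DOX, against 26.8, 24.7 and 26.2 FPKM in DOX and 77.5, 84.1 and 79.5 FPKM in con (log2 fold change 1.27 ± 0.05, limma adjusted p = 7.03e-06). Adprhl1, a heart-enriched pseudoenzyme needed for chamber growth in frogs, was at 10.7, 10.9 and 11.6 FPKM, against 3.41, 3.25 and 3.43 FPKM in DOX and 11, 12.8 and 10.3 FPKM in con (log2 fold change 1.47 ± 0.07, limma adjusted p = 9.12e-06). Its diosmetin and con libraries overlapped, and DMT+DOX against con was not called (log2 fold change -0.03 ± 0.08, limma adjusted p = 0.783). Synpo2l, a Z-disc protein that binds actin, was at 17.7, 18 and 16.2 FPKM, against 5.61, 6.98 and 7.74 FPKM in DOX and 15, 13.4 and 15.1 FPKM in con (log2 fold change 1.24 ± 0.10, limma adjusted p = 0.000118). Here the 3 diosmetin libraries lay above the con libraries as well. On the cardiac list, Xirp1, an actin-binding protein of intercalated discs, was at 4.48, 3.81 and 4.07 FPKM, against 1.87, 2.07 and 2.73 FPKM in DOX (log2 fold change 0.68 ± 0.11, limma adjusted p = 0.0039), and Ankrd1, a stretch-responsive repressor, averaged 1052 ± 28.6 FPKM with diosmetin and 689 ± 36.3 FPKM with DOX (log2 fold change 0.61 ± 0.06, limma adjusted p = 0.000347). Lmod1, which nucleates actin filaments in smooth muscle, was at 20.5, 20.4 and 19.8 FPKM, against 9.29, 9.97 and 9.39 FPKM in DOX and 21.9, 21.2 and 22.2 FPKM in con (log2 fold change 1.01 ± 0.06, limma adjusted p = 2.83e-05). Cnn1, the smooth muscle calponin, was at 37.8, 35.8 and 36.5 FPKM, against 21.7, 21.8 and 25.5 FPKM in DOX (log2 fold change 0.66 ± 0.07, limma adjusted p = 0.000479).

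**Figure D4:**
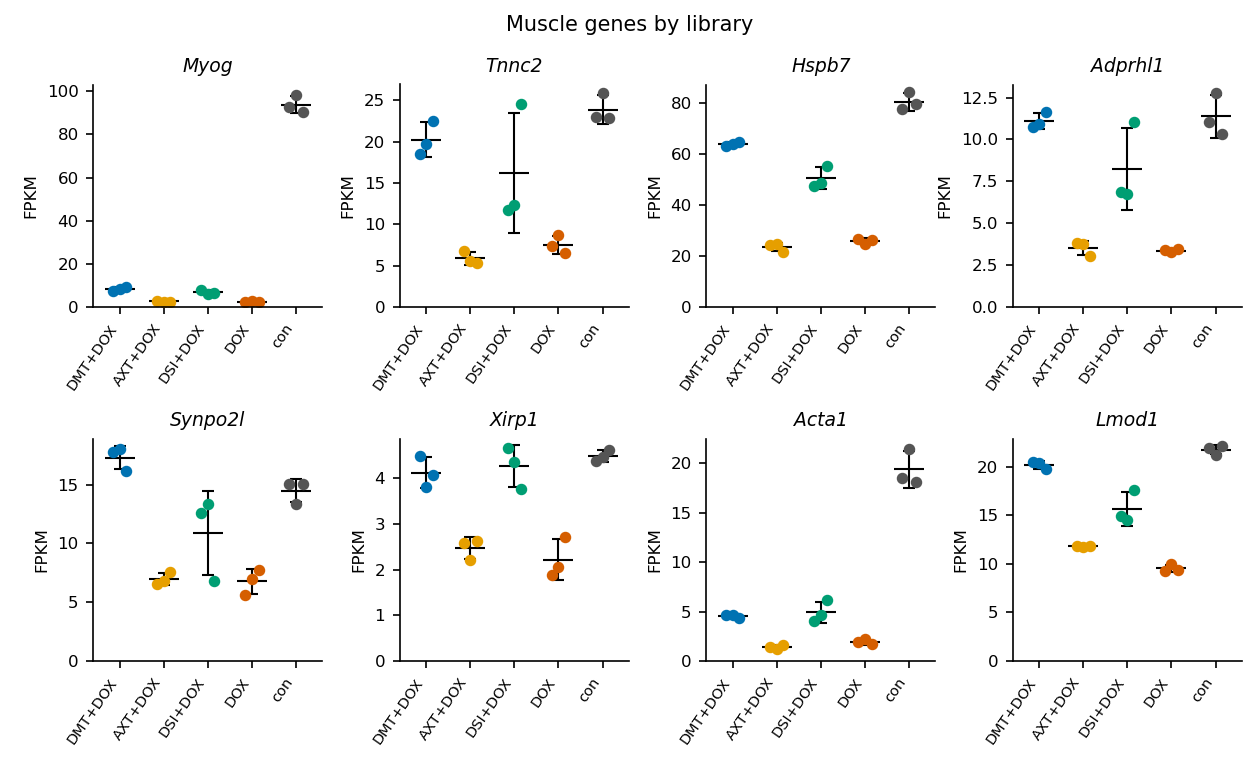
FPKM of 8 muscle genes in each library of the 5 groups, with the mean and SD of the 3 libraries as bars. In each panel the 3 DMT+DOX libraries lie above the 3 DOX libraries, and the AXT+DOX means lie near the DOX means, while Myog and Acta1 stay far under con. The DSI+DOX libraries overlap the DMT+DOX libraries for Myog and lie on both sides of them for Tnnc2.

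Genes of drug metabolism held 2 of the clearest single rises. Nqo1, a quinone reductase that AhR and NRF2 both induce and that can reduce anthracyclines, was at 107, 105 and 118 FPKM in DMT+DOX libraries, against 39.4, 37.5 and 39.9 FPKM in DOX libraries and 15.8, 16.8 and 15.1 FPKM in con libraries (log2 fold change 1.48 ± 0.06, limma adjusted p = 7.03e-06). Doxorubicin had raised it over con, and diosmetin libraries were higher still. Ahrr, the repressor that AhR induces to limit itself, was at 5.29, 5.64 and 5.51 FPKM, against 1.44, 1.68 and 1.95 FPKM in DOX and 2.18, 2.36 and 2.38 FPKM in con (log2 fold change 1.27 ± 0.09, limma adjusted p = 6.49e-05). Cyp1b1, a cytochrome P450 induced through AhR, was at 63.7, 65 and 58.1 FPKM, against 40.1, 39.8 and 38.9 FPKM in DOX and 39.5, 37.8 and 38.8 FPKM in con (log2 fold change 0.64 ± 0.06, limma adjusted p = 0.00017). Ahrr and Cyp1b1 in the diosmetin libraries were above every con library as well.

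The rest of the AhR list did not follow as a group. Of 9 tested members 3 rose (Nqo1, Ahrr and Cyp1b1) and 2 fell (Slc7a5 and Ahr), beside 6.48% and 14% of all tested genes, with a median of 0.12. Ahr, the receptor itself, was at 7.85, 7.36 and 7.21 FPKM in DMT+DOX, against 11.5, 12.1 and 11.5 FPKM in DOX and 3.84, 4.23 and 4.98 FPKM in con (log2 fold change -0.58 ± 0.07, limma adjusted p = 0.000681). Tiparp, another AhR target that modifies the receptor, was at 13.6, 13.9 and 12.4 FPKM, against 10.8, 12.3 and 11 FPKM in DOX, and was not called (log2 fold change 0.21 ± 0.07, limma adjusted p = 0.0795). Cyp1a1, the classical target, stayed under 0.1 FPKM in all 6 libraries and was not tested. The Ahrr and Cyp1b1 promoters printed above hold GCGTG. In all, 4 of the 5 promoters found for called genes of the list do so, beside 52.4% of promoters of tested genes. These 4 are Ahrr, Cyp1b1, Nqo1 and Slc7a5, and Slc7a5 fell, so the count does not go with 1 direction.

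Most NRF2 targets were not called. Of 24 tested genes 5 rose and 2 fell, with a median of 0.08, beside 6.48% and 14% of all tested genes. In 10 of the 24 all DMT+DOX libraries lay above all DOX libraries and in 4 all below. Over all tested genes these shares were 13.1% and 25.8%. Gsta4, a transferase for lipid aldehydes, was at 7.8, 9.12 and 9.2 FPKM, against 5.4, 6.25 and 5.29 FPKM in DOX (log2 fold change 0.55 ± 0.09, limma adjusted p = 0.00404). Hmox1, heme oxygenase, was at 106, 108 and 118 FPKM, 122, 113 and 119 FPKM in DOX and 47.1, 44.8 and 43.6 FPKM in con, and was not called (log2 fold change -0.09 ± 0.06, limma adjusted p = 0.31). Gclc, Gclm, Srxn1 and Txnrd1, classical members of the battery, were not called, with log2 fold changes between -0.04 and 0.19. With all 15 libraries in 1 fit, 2 of the 24 rose and 1 fell.

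Antioxidant enzymes had 4 of 22 higher and 3 lower (beside 6.48% higher and 14% lower over all tested genes). Their median of -0.04 became 0.02 under median scaling. Cat, catalase, which breaks down hydrogen peroxide in peroxisomes, was at 39.4, 39.9 and 37.2 FPKM in DMT+DOX, against 21.4, 22.2 and 24.2 FPKM in DOX and 20.1, 20.6 and 21.2 FPKM in con (log2 fold change 0.76 ± 0.06, limma adjusted p = 0.000121). Glrx, a glutaredoxin that restores thiols, was at 54.1, 53.9 and 55.6 FPKM, against 38.8, 38.6 and 34.1 FPKM in DOX (log2 fold change 0.54 ± 0.06, limma adjusted p = 0.000622). Gpx4, which protects membranes from lipid peroxides, was at 115, 128 and 139 FPKM, against 151, 134 and 142 FPKM in DOX, and was not called (log2 fold change -0.16 ± 0.08, limma adjusted p = 0.177). The 3 that fell were Glrx3, Glrx5 and Txnrd2, and glutaredoxins therefore stood on both sides.

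Glutathione S-transferases, which join glutathione to electrophiles, had 6 of 12 tested members higher and 1 (Gsto1) lower, with a median of 0.24. Over all tested genes 6.48% were higher and 14% lower. Mgst3, a membrane-bound member, was at 16.1, 16.9 and 18 FPKM in DMT+DOX, against 8.56, 8.89 and 9.13 FPKM in DOX and 21, 21.5 and 19.2 FPKM in con (log2 fold change 0.87 ± 0.07, limma adjusted p = 8.94e-05). Mgst1, another membrane-bound form, was at 36.4, 39.2 and 41.7 FPKM, against 30.6, 27.7 and 27 FPKM in DOX (log2 fold change 0.44 ± 0.07, limma adjusted p = 0.00316). Reads of such near-identical families may be shared between members. With all 15 libraries in 1 fit, 3 of the 12 were called, all higher. Sult1a1, a phenol sulfotransferase, was at 9.64, 10.6 and 9.67 FPKM, against 4.06, 3.53 and 3.27 FPKM in DOX and 13.3, 13.3 and 13.6 FPKM in con (log2 fold change 1.25 ± 0.09, limma adjusted p = 5.63e-05). Among enzymes that reduce anthracyclines, Xdh, xanthine dehydrogenase, was at 11.9, 11.9 and 11 FPKM, against 6.21, 7.01 and 6.98 FPKM in DOX (log2 fold change 0.71 ± 0.08, limma adjusted p = 0.000427). With Nqo1 and Cyb5r3 it made 3 of 10 higher and none lower, beside 6.48% higher and 14% lower of all tested genes. Carbonyl reductase Cbr3 and aldo-keto reductase Akr1a1, on the same list, were not called.

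Drug transporters gave 3 falls and 1 rise among 9 (beside 14% lower and 6.48% higher over all tested genes). With all 15 libraries in 1 fit, 1 fell and 1 rose, and the call of Abcb1a was lost. Abcb1a, which encodes the efflux pump P-glycoprotein that exports doxorubicin, was at 8.55, 9.39 and 8.12 FPKM in DMT+DOX, against 12, 12.9 and 13.2 FPKM in DOX and 3.09, 2.91 and 2.91 FPKM in con (log2 fold change -0.50 ± 0.08, limma adjusted p = 0.00247). Slc29a1, a nucleoside transporter, was at 1.15, 1.36 and 0.76 FPKM, against 2.28, 1.95 and 2.29 FPKM in DOX (log2 fold change -0.61 ± 0.12, limma adjusted p = 0.00844). For both genes the diosmetin libraries lay under every DOX library, and for Abcb1a above every con library.

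**Figure D5:**
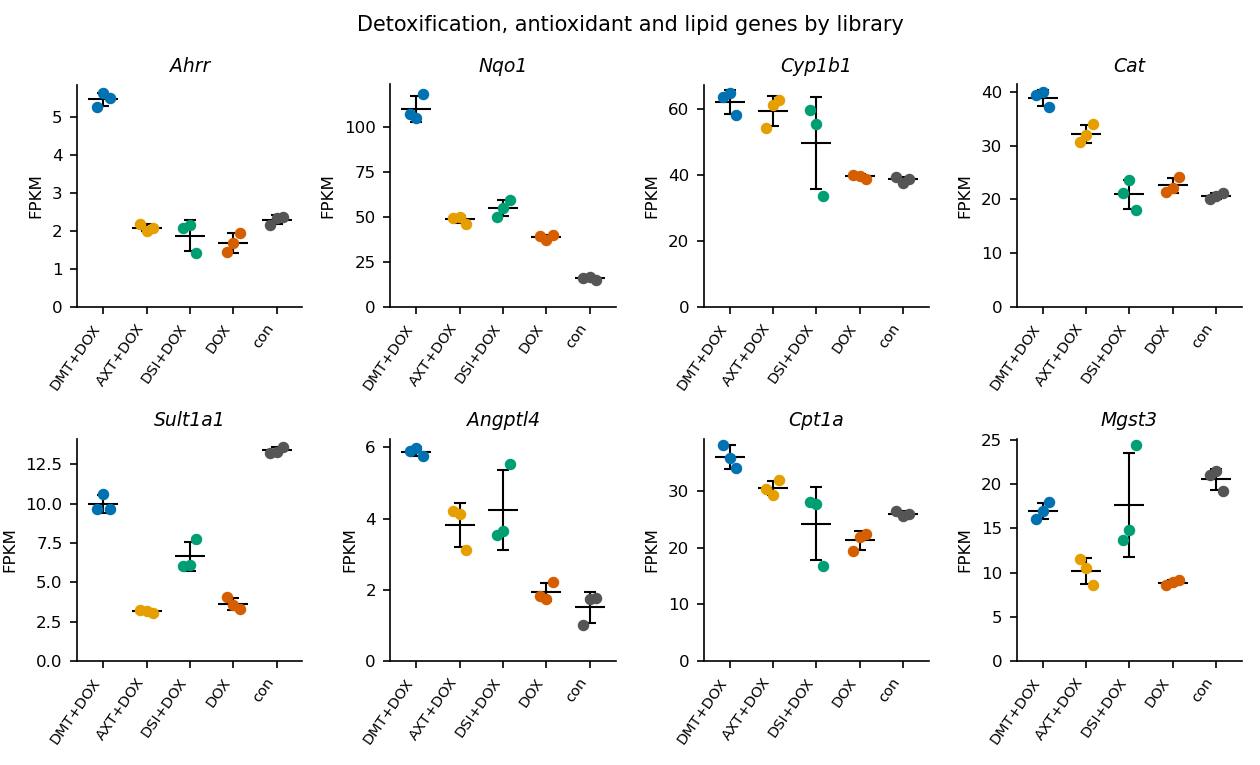
FPKM of 8 genes of detoxification, antioxidant defence and lipid use in each library of the 5 groups, with the mean and SD of the 3 libraries as bars. The 3 DMT+DOX libraries lie above the 3 DOX libraries in each panel, and for Ahrr and Nqo1 above every library of the other groups.

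Fatty acid oxidation genes and targets of the lipid sensors PPAR rose in part. Of 25 tested 10 rose and 1 (Etfa) fell, with a median of 0.19, beside 6.48% and 14% of all tested genes. Angptl4, an inhibitor of lipoprotein lipase and a PPAR target, was at 5.9, 5.99 and 5.76 FPKM in DMT+DOX, against 1.83, 1.75 and 2.21 FPKM in DOX and 0.999, 1.74 and 1.77 FPKM in con (log2 fold change 1.24 ± 0.09, limma adjusted p = 5.65e-05). Cpt1a, which admits fatty acids to mitochondria, was at 38.3, 35.9 and 34.1 FPKM, against 19.4, 22 and 22.5 FPKM in DOX and 26.5, 25.6 and 25.9 FPKM in con (log2 fold change 0.74 ± 0.07, limma adjusted p = 0.00026). Acaa2, the last thiolase of the mitochondrial spiral, was at 66.6, 67.8 and 70.9 FPKM, against 40.2, 38.9 and 40.2 FPKM in DOX and 49.6, 53.5 and 47.3 FPKM in con (log2 fold change 0.77 ± 0.05, limma adjusted p = 4.59e-05). For all 3 the diosmetin libraries were higher than the con libraries too.

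Few genes of the respiratory chain were called. The counts of this and the next metabolic lists are to be read beside 14% lower and 6.48% higher over all tested genes. Of 46 oxidative phosphorylation genes 1 (Cox6b1) rose and 1 (Cyc1) fell, with a median of 0.00, and with all 15 libraries in 1 fit neither was called. The Cox6b1 call was lost without DMT+DOX replicate 2 or 3 or DOX replicate 2 or 3 (adjusted p between 0.0687 and 0.0944), and the Cyc1 call without DMT+DOX replicate 1 or 2 or DOX replicate 1 or 3 (between 0.0672 and 0.136). Mitochondrial biogenesis regulators had 7 of 27 lower and none higher, with a median of -0.06 that became -0.003 under median scaling. Among them Esrra, a nuclear receptor of mitochondrial genes, was at 39.7, 39.3 and 40.9 FPKM, against 55.3, 52.3 and 58.7 FPKM in DOX and 23.3, 27.6 and 22.1 FPKM in con (log2 fold change -0.46 ± 0.06, limma adjusted p = 0.00096), and Lonp1, the matrix protease, was at 59.7, 57.8 and 61.1 FPKM, against 81.2, 79.4 and 81.5 FPKM in DOX (log2 fold change -0.43 ± 0.05, limma adjusted p = 0.000586). Cholesterol synthesis gave 0 limma calls among 25 tested genes, with 2 at an unadjusted p under 0.05 and a median of 0.03, and fatty acid synthesis 1 fall (Scd2) among 13. The Scd2 call was lost without any 1 library other than DOX replicate 1 (adjusted p between 0.0805 and 0.104), under median scaling and under quantile normalization. In glycolysis 4 of 27 rose and 2 fell. Pfkm, the muscle phosphofructokinase, was at 44.7, 45 and 44.6 FPKM, against 25, 26.5 and 29 FPKM in DOX and 59.3, 58.8 and 57.6 FPKM in con (log2 fold change 0.72 ± 0.06, limma adjusted p = 0.000144).

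Matrix genes had 8 of 35 higher and 7 lower (beside 6.48% higher and 14% lower over all tested genes). With all 15 libraries in 1 fit they had 4 higher and 5 lower. Tnc, tenascin C of injured tissue, was at 0.845, 1.04 and 0.757 FPKM in DMT+DOX, against 2.69, 3.24 and 3.54 FPKM in DOX and 0.458, 0.438 and 0.57 FPKM in con (log2 fold change -1.14 ± 0.11, limma adjusted p = 0.000203). Tnc passed the filter of 1 FPKM through the DOX libraries, where it was high, so its p is not independent of the filter. Ccl2 and Slc29a1, described above, also needed DOX libraries to pass. Postn, periostin, was at 4.18, 4.08 and 4.51 FPKM, against 9.34, 10.0 and 8.39 FPKM in DOX and 8.15, 6.72 and 7.84 FPKM in con (log2 fold change -0.96 ± 0.08, limma adjusted p = 0.000144). Fibrillar collagens Col1a1, Col1a2 and Col3a1 rose, by 0.31 to 0.35 on the log2 scale. Of 26 metalloproteinases and inhibitors 6 rose and none fell, and all 6 were members of the Adam and Adamts families (beside 14% lower and 6.48% higher over all tested genes). A fit of all 15 libraries called 2 of the 26, both higher, and the calls of Adamts12 and Adam9 were among those lost. Adamts1, which cleaves proteoglycans, was at 108, 110.4 and 99.8 FPKM, against 59.6, 61.6 and 65.4 FPKM in DOX (log2 fold change 0.76 ± 0.06, limma adjusted p = 8.94e-05).

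Signalling lists held single genes of size, and their counts are to be read beside 14% lower and 6.48% higher over all tested genes. Id3, an inhibitor of differentiation factors that BMP induces, was at 60.9, 66.2 and 68.6 FPKM in DMT+DOX, against 36.7, 33.8 and 34.8 FPKM in DOX and 49, 51.3 and 48.7 FPKM in con (log2 fold change 0.88 ± 0.06, limma adjusted p = 5.65e-05), within a TGF-beta and BMP list with 6 of 30 higher and 3 lower (3 and 1 with all 15 libraries in 1 fit). Rgs2, which shortens G protein signals, was at 47.2, 44.8 and 44.6 FPKM, against 18.8, 18.2 and 19.1 FPKM in DOX and 39.3, 41.7 and 41.5 FPKM in con (log2 fold change 1.24 ± 0.05, limma adjusted p = 7.03e-06). Itga8, an integrin subunit, was at 14.6, 14 and 12.4 FPKM, against 4.79, 5.18 and 5.51 FPKM in DOX and 21.2, 19 and 19.8 FPKM in con (log2 fold change 1.25 ± 0.08, limma adjusted p = 4.64e-05). All 3 were lower in DOX than in con, and the diosmetin libraries lay on the con side of the DOX libraries. Vegfd, a growth factor of lymphatic vessels, was at 2.55, 2.44 and 2.47 FPKM, against 0.499, 0.456 and 0.623 FPKM in DOX (log2 fold change 1.19 ± 0.09, limma adjusted p = 6.49e-05), while Vegfa, its angiogenic relative, was at 33, 32.1 and 31.6 FPKM, against 46.2, 43.5 and 42.8 FPKM in DOX (log2 fold change -0.44 ± 0.05, limma adjusted p = 0.0009). The 2 relatives thus moved in opposite directions. For Vegfd only the DMT+DOX libraries reached 1 FPKM, so it passed the filter through the group where it was high. Its p is therefore not independent of the filter. Nr1d1, the clock repressor REV-ERB alpha, was at 11.7, 11.1 and 11.8 FPKM, against 17.4, 21.2 and 20.6 FPKM in DOX (log2 fold change -0.72 ± 0.08, limma adjusted p = 0.000572), on a clock list with 5 of 14 lower and none higher that turned to 3 higher and 3 lower under median scaling and to 1 lower with all 15 libraries in 1 fit.

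Some of the largest falls stood on no list. Slc4a11, a membrane transporter of the bicarbonate transporter family, was at 4.47, 4.6 and 4.83 FPKM in DMT+DOX, against 15.9, 15.7 and 17.4 FPKM in DOX and 0.147, 0.346 and 0.268 FPKM in con (log2 fold change -1.62 ± 0.07, limma adjusted p = 7.03e-06). Lcn3, a lipocalin, was at 15.7, 15.7 and 17 FPKM, against 50.4, 45.1 and 44.7 FPKM in DOX (log2 fold change -1.48 ± 0.07, limma adjusted p = 7.03e-06), and the con libraries listed it at 0.599, 0.735 and 0 FPKM. Adgrf3, an adhesion G protein-coupled receptor, was at 1.95, 2.06 and 1.5 FPKM, against 5.08, 5.16 and 5.88 FPKM in DOX (log2 fold change -1.17 ± 0.10, limma adjusted p = 0.000144), and at 0, 0 and 0.0389 FPKM in con. These genes were nearly silent in con, highest in DOX and intermediate with diosmetin, with no overlap between groups. Rccd1, a chromatin-associated protein, had the same order, at 3.86, 4.19 and 4.22 FPKM in DMT+DOX, 10.3, 10.4 and 12.4 FPKM in DOX and 1.19, 1.71 and 1.57 FPKM in con (log2 fold change -1.24 ± 0.09, limma adjusted p = 5.65e-05). LOC100360647, an uncharacterized locus with the largest fitted rise, was at 114, 87.3 and 189 FPKM in DMT+DOX, against 66, 53 and 18 FPKM in DOX (log2 fold change 1.60 ± 0.43, limma adjusted p = 0.0304), but its con libraries ran from 25.6 to 186 FPKM. Its call was lost without DMT+DOX replicate 1 (1.66, adjusted p = 0.0661), without DMT+DOX replicate 3 (1.30, adjusted p = 0.0862) and without DOX replicate 2 (1.80, adjusted p = 0.0555).

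Other lists had few calls, to be read beside 14% lower and 6.48% higher over all tested genes. The proteasome had 1 of 33 lower (Psmb9, the interferon-induced subunit), autophagy and lysosome genes 4 of 33 lower and none higher, and homologous recombination and Fanconi genes 1 of 21 higher and 3 lower. The Psmb9 call was lost without DMT+DOX replicate 2 or 3 or DOX replicate 1 or 2 (adjusted p between 0.0508 and 0.0962), and median scaling gave 1 proteasome gene higher and none lower. Heat shock proteins had 4 of 22 in each direction, and the rise of Hspb7 was the largest. Iron handling and ferroptosis genes had 3 of 22 higher and 4 lower. Of 6 tested histone genes only H1f2 was called, lower. A p that misses the threshold does not show that the groups were equal.

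DMT+DOX was also tested against the 2 other pretreatments, at different doses and with the 3 DMT+DOX libraries in common. Against AXT+DOX, 1234 of 11037 genes were called (11.2%), 460 higher (4.17%) and 774 lower (7.01%). The NF-kB list had 17 of 23 lower and none higher, with a median of -0.63. Cxcl1 was at 17, 19 and 17.1 FPKM in the AXT+DOX libraries, every one of them above the diosmetin libraries (DMT+DOX over AXT+DOX, log2 fold change -2.04 ± 0.08, limma adjusted p = 1.51e-05). The skeletal list had 10 of 17 higher and none lower, and Myog was at 2.97, 2.19 and 2.54 FPKM in AXT+DOX (log2 fold change 1.40 ± 0.11, limma adjusted p = 0.000237). Nqo1, at 49.4, 50.2 and 46.3 FPKM in AXT+DOX, and Ahrr, at 2.18, 2.01 and 2.09 FPKM, were also higher with diosmetin (log2 fold change 1.16 ± 0.06, limma adjusted p = 4.54e-05 for Nqo1, and log2 fold change 1.07 ± 0.08, limma adjusted p = 0.000138 for Ahrr). Cyp1b1 was not called between these groups, with 54.3, 61.3 and 62.9 FPKM in AXT+DOX (log2 fold change 0.06 ± 0.07, limma adjusted p = 0.597), nor was Postn (log2 fold change 0.26 ± 0.11, limma adjusted p = 0.166). Median scaling turned the split against AXT+DOX to 620 higher and 319 lower. The count of calls was 448, 475 and 705 without DMT+DOX replicates 1, 2 and 3, and 1610, 412 and 674 without AXT+DOX replicates 1, 2 and 3.

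Against DSI+DOX limma called 0 of 10979 genes, with 890 at an unadjusted p under 0.05. Library DSI+DOX 3 stood apart, with a sum of 548227 FPKM and 14.32% of it in ribosomal protein genes, against 8.137% to 9.910% in the other libraries. Without it 303 genes were called, 235 higher and 68 lower. Nqo1 was at 50.2, 54.8 and 59.2 FPKM in the DSI+DOX libraries, under every diosmetin library (log2 fold change 1.00 ± 0.09, limma adjusted p = 0.104). Ccl2 was at 4.81, 3.88 and 5.69 FPKM there, above every diosmetin library (log2 fold change -1.49 ± 0.16, limma adjusted p = 0.116). Myog, at 8.1, 6.04 and 6.68 FPKM in DSI+DOX, overlapped with the diosmetin libraries (log2 fold change 0.25 ± 0.14, limma adjusted p = 0.567). Tnnc2 was at 11.7, 12.3 and 24.6 FPKM, with DSI+DOX 3 above and the other 2 below the diosmetin libraries. List medians of DMT+DOX over DSI+DOX were -0.03 for the integrated stress response, -0.015 for aminoacyl-tRNA synthetases and -0.04 for MAPK feedback genes. They were -0.055 for skeletal and -0.046 for cardiac muscle genes. Larger medians stood on the NF-kB list (-0.35) and the AhR list (0.36). Whether the DSI+DOX group differed from DOX on these lists was not tested.

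Set against saline-treated cells, 5292 of 11013 genes were called in DMT+DOX (48.1%) and 6268 of 11092 in DOX (56.5%), with 263 (2.39%) and 578 (5.21%) changed at least 2-fold. Both comparisons share the con libraries, and no test of the difference between the counts was made. With diosmetin, cholesterol synthesis genes still had 22 of 25 lower than con, mitosis genes 42 of 44 lower and replication genes 34 of 37 lower (background 23.3% lower). In DOX the same lists had 23 of 25, 41 of 44 and 34 of 37 lower (background 23.9% lower).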

How the data were processed

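Total RNA of H9c2 cells was extracted with TRIzol and made into libraries with the NEBNext Ultra kit, per the labels' protocols. The submitters' processing notes name Trimmomatic, HISAT2 and featureCounts and the build Rnor_6.0. The step from counts to FPKM, the library depths and any use of strand were not given in the sources used here. The authors deposited 1 table of FPKM values per gene and library, per the file headers. The low FPKM values did not give whole reads back, so counting error is unknown and no count model was fitted.

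From 19344 entries 16 repeats were removed. FPKM values were turned to log2(FPKM + 1) and fitted with limma 3.58.1 in R 4.3.3, with an intensity trend and the 6 libraries of a comparison only. Genes had to reach 1 FPKM in 3 or more of the 6, tests were two-sided, and p-values were adjusted over all tested genes by Benjamini-Hochberg. The fit was tested on simulated data. Symbols on more than 1 entry (204) were kept in the fit but not named. Genes that share reads with near-identical copies or overlap a neighbour are uncertain. Promoters came from RefSeq (GRCr8) and give no position in Rnor_6.0.

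The members, the 45 gene lists and the tests were chosen with earlier results of these data known. Of the 1388 entries on gene and marker lists 1252 matched the table. Genes named were the 12 largest rises and falls among called genes averaging 5 FPKM or more in the higher group, without overlap, up to 3 called members per list with the largest change, and a few fixed by name. Other genes named where a count is 5 or fewer, or singled out beside a list (Fos, Hspa5, the remaining NF-kB members, NRF2, reductase, redox, unfolded protein and collagen genes), were chosen after their values were seen. Alternatives covered the pseudocount, the filter, the scaling, the libraries in the fit, the replicate block and each replicate left out.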

Additional observations from a re-analysis of the deposited data

How the results depend on the processing

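For DMT+DOX against DOX, 2267 genes were called. The count was 1166 with all 15 libraries in 1 fit and 59 with a minimum of 2-fold, and leaving out 1 library gave 1188 (without DMT+DOX replicate 1) to 2167 (without DOX replicate 1). Against AXT+DOX, 1234 genes were called, 522 with all 15 libraries in 1 fit and 412 to 1610 with 1 library left out. Against DSI+DOX the count of 0 became 195 with all 15 libraries in 1 fit, and 0 to 303 with 1 library left out. DMT+DOX against con gave 5292 calls and 2860 with all 15 libraries. Because DSI+DOX 3 stands apart, a fit of 14 libraries without it was added after the data were seen, and it called 2808 genes in DMT+DOX against DOX. For DMT+DOX against DOX the total count of calls stayed within 1.5 times under these settings: 2240 calls with a pseudocount of 0.1, 1930 with a filter at 5 FPKM, 1976 with no filter, 1940 with median scaling, 2147 with quantile normalization and 2117 with no trend. The causes of these shifts were not tested. No named called gene changed direction under the alternatives run. Direction over many genes did change: median scaling turned the split of 717 higher and 1550 lower to 1035 and 905, and it turned the medians of the antioxidant (-0.036 to 0.022), BCL2 (-0.052 to 0.007) and ribosomal protein (-0.050 to 0.008) lists, among others.

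The labels do not say whether the replicate numbers pair the samples, and correlations over 3 libraries a group cannot decide it. Deviations of same-numbered DMT+DOX and DOX libraries correlated at -0.199, 0.091 and -0.267, and the highest value, 0.35, joined DMT+DOX 3 and DOX 1. With the replicate number as a block, 1142 genes were called in DMT+DOX against DOX and 386 against AXT+DOX. Of the 134 genes named and called, 109 remained called with all 15 libraries in 1 fit, 111 with the block, 125 with median scaling and 114 to 130 with 1 library left out. Of 16 alternatives, the calls of Scd2 and Dbp were lost in 11, that of Birc2 in 10 and that of Cyc1 in 9. With 3 libraries a group and unknown depth, changes in genes near 1 FPKM are the least certain.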
